A study of Homo sapiens with 2 samples.

Results

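The alpha and beta tubulin genes described here are 10 isotype genes, the alpha genes TUBA1A, TUBA1B, TUBA1C and TUBA4A and the beta genes TUBB, TUBB2A, TUBB2B, TUBB3, TUBB4B and TUBB6. They were followed in LNCaP cells, a human prostate carcinoma line, on Affymetrix Human Genome U133 Plus 2.0 arrays. The shKDM4A cells were infected with a virus that expresses a hairpin directed at KDM4A, a histone lysine demethylase, and the control cells with a virus of the pLKO.1 vector alone, which has no hairpin. Both viruses were packaged in HEK293T cells, and RNA was taken 3 days after infection. Each group had 1 array, so no difference below has a replicate check and no test was possible; the number of arrays limits the precision.

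A probe set, the group of probes that reads one transcript, was given to a tubulin gene through the platform annotation when it named that gene alone. This found 18 probe sets for 9 of the 10 genes, out of 44672 probe sets and 17689 genes in all. TUBB2B had no probe set of its own among these and was read only by a probe set that names TUBB2A as well. The list was chosen by the log2 differences of these same arrays, TUBA1A's among them, so the values are given as a description.

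Alpha and beta tubulin pair into the dimers from which microtubules are built. Separate genes encode isotypes that differ mainly in their acidic C-terminal tails, where most of the enzymes that modify tubulin act, and the isotype mix differs between tissues. TUBA1A and TUBB3 are best known from developing neurons, while TUBA1B, TUBA1C, TUBB and TUBB4B are widely used in dividing cells. Cells also adjust tubulin mRNA to the pool of free dimers: when dimers are in excess, TTC5 recognises the start of nascent tubulin chains and directs the decay of their mRNAs.

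Every value is a log2 difference, shKDM4A minus control, unless said otherwise. The deposited values of each probe set are centred on the mean of both arrays, so the control value is the shKDM4A value with its sign turned, and how strongly a gene is expressed is lost. Levels of isotypes can therefore not be set against each other, and the LNCaP identity could not be checked from the level of its markers. A gene's difference is the mean over its probe sets, with the SD between them where there are 2 or more; that SD is not a spread between cultures. KDM4A itself was lower by a difference of -1.18 ± 0.40 (SD, n = 2 probe sets). Its paralogs KDM4C, KDM4B and KDM4D lay at -0.42 ± 0.44 (3 probe sets), -0.026 ± 0.36 (8 probe sets) and 0.15 ± 0.12 (2 probe sets). The KDM4C sets ran from -0.92 to -0.098. The 18 probe sets for bacterial and phage RNA added at hybridisation ran from -0.090 to 0.063, and over all genes the median was 0.020 with quartiles of -0.14 and 0.18. RNA added at that step did not pass through culture or infection, so the range of these spike-ins is not a spread between cultures.

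TUBA1A was far higher in the shKDM4A array, and no other alpha or beta tubulin gene with a value was 2-fold apart. Its single probe set, 209118_s_at, read 1.40 in the shKDM4A array and -1.40 in the control array on the centred log2 scale. That is a difference of 2.80, a 6.95-fold higher signal, and the 5th highest of 17689 genes. Over all genes, 1.16% were higher by 2-fold or more and 1.44% lower by as much; among genes that rest on 1 probe set, as TUBA1A does, 1.43% were 2-fold higher and 1.32% 2-fold lower. The ending _s_at marks probe sets whose probes may detect more than one transcript, and 1.73% of 9074 such sets naming 1 gene were at least 2-fold higher. No other probe set used here names TUBA1A alone.

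TUBA1B and TUBA1C, which flank TUBA1A on chromosome 12 and encode near-identical alpha tubulins, were slightly lower. The 5 probe sets of TUBA1B read between -0.13 and -0.10 in the shKDM4A array and between 0.10 and 0.13 in the control array. Their differences averaged -0.24 ± 0.021 (SD, n = 5 probe sets). Both probe sets of TUBA1C gave a difference of -0.22, with an SD of 0.00013. All 7 sets lay between -0.26 and -0.20, and the gap between the gene means was smaller than the SD of TUBA1B. That SD is between probe sets and not between cultures, so it cannot decide whether the genes differ. Each of the 7 ends in _x_at, which marks probes that other transcripts may share, and their agreement is not that of independent probes. The median SD was 0.089 over 112 genes with several probe sets that all end in _x_at, against 0.18 over the 8944 genes with more than 1 probe set of any kind.

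The promoters of these neighbours are shown because adjacent genes of the same kind gave unlike differences. That of TUBB2A, the lowest of the alpha and beta tubulin genes, is shown with them. Each sequence is the 250 bases before the transcription start listed by RefSeq in GRCh38.p14, in the direction of the gene. Capitals mark CCAAT boxes (CCAAT, searched on both strands, so also ATTGG) and TATA motifs (TATAAA or TATATA, searched on the gene's own strand); none of these marked matches overlap.
TUBA1A, minus strand, chr12:49189081-49189330: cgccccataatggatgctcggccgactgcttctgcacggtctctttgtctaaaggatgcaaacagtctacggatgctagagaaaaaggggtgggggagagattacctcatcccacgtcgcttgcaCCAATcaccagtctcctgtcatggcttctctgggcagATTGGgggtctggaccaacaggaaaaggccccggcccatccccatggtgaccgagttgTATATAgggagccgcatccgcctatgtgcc
TUBA1B, minus strand, chr12:49131396-49131645: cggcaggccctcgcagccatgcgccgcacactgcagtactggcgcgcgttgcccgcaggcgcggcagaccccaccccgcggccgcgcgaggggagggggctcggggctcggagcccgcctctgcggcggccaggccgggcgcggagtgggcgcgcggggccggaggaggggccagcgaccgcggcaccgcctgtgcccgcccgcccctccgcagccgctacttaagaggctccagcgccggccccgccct
TUBA1C, plus strand, the most downstream of its 3 listed starts, chr12:49264832-49265081: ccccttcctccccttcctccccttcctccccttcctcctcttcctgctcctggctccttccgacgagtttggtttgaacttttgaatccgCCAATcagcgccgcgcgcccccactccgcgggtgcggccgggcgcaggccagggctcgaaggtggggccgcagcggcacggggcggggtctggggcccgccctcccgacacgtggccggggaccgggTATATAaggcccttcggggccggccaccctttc
TUBB2A, minus strand, chr6:3157545-3157794: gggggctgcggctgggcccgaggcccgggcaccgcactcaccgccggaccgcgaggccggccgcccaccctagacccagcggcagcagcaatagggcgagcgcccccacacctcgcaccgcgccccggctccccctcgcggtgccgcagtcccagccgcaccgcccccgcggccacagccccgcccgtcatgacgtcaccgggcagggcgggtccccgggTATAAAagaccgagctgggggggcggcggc

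The TUBA1A window held 2 CCAAT boxes, beginning 88 and 125 bases before the start, and a TATA motif beginning at 30 bases. TUBA1B, the neighbour on one side, held neither motif and was the richer in G and C, at 81.2% against 56.4% for TUBA1A. TUBA1C, on the other side, held 1 CCAAT box and a TATA motif in the window shown; the windows of its other listed starts held a CCAAT box and no TATA motif. G and C made up 70.8% of the TUBA1C window shown and 47.2% and 48.8% of its others. Of the 15 windows listed for the 10 tubulin genes, 9 held a CCAAT box and 4 (1 each of TUBA1A, TUBA1C, TUBB2A and TUBB4B) a TATA motif. Among all 35116 listed windows of this length, 32% held a CCAAT box and 9.51% a TATA motif. The median content of G and C was 58.0% over all these windows and 70.8% over the 15 tubulin windows.

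Other short motifs were searched in the same windows. The GC box (GGGCGG, both strands) was in 9 of the 15 tubulin windows, none of them of TUBA1A or TUBB4B, and in 42.6% of all windows. The cell cycle homology region motif (TTTGAA, both strands), an element of late cell cycle promoters, was in 3 of the 15, windows of TUBA1C and TUBB4B, and in 13.3% of all windows. A cyclic AMP response element (TGACGTCA, both strands) was in 1 of the 15, that of TUBB2A, beginning 60 bases before the start, and in 1.65% of all windows. The E2F motifs TTTCCCGC and TTTGGCGC (both strands) matched no tubulin window and 1.93% of all windows. None of these matches is evidence that a factor binds.

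TUBA4A, an alpha isotype whose gene does not encode the usual terminal tyrosine, was moderately higher. Its single probe set, 212242_at, read 0.31 in the shKDM4A array and -0.31 in the control array. The difference of 0.61 is a 1.53-fold higher signal, and 3.89% of all genes lay at or above it. TUBA4A and TUBA1A were thus the alpha and beta tubulin genes at least 1.5-fold higher, where 4.3% of all genes were.

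**Figure D1:**
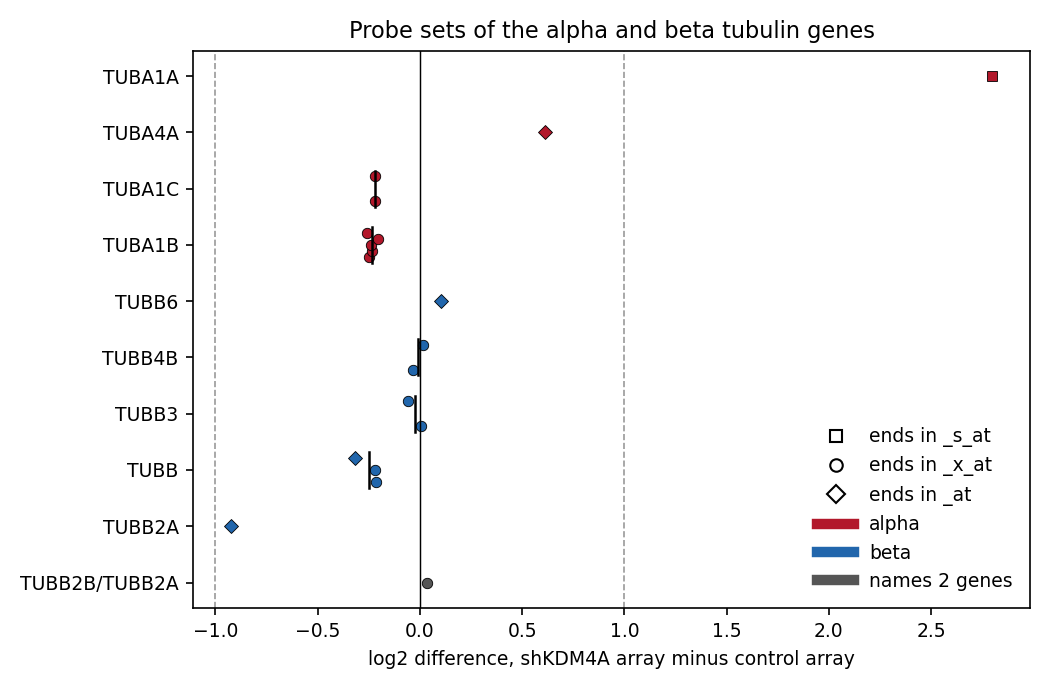
Log2 difference, shKDM4A array minus control array, of each probe set of the tubulin genes (x axis), one gene per row, alpha genes in red, beta genes in blue and the probe set that names both TUBB2B and TUBB2A in grey; the marker shape gives the ending of the probe set's name, short vertical bars are gene means where there are 2 or more probe sets, and dashed lines mark 2-fold. TUBA1A stands alone at 2.80, TUBB2A lies at -0.92, and the probe sets of TUBA1B and TUBA1C cluster between -0.26 and -0.20.

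Of the beta genes, TUBB2A, a class II beta tubulin, had the largest difference. Its own probe set, 204141_at, read -0.46 in the shKDM4A array and 0.46 in the control array. The difference of -0.92 is a 1.89-fold lower signal, short of 2-fold, with 1.76% of all genes at or below it; 4.38% of all genes were at least 1.5-fold lower. The probe set that names both TUBB2B and TUBB2A, 209372_x_at, read 0.017 in the shKDM4A array and -0.017 in the control array. Its difference of 0.033 lay within the range of the hybridisation spike-ins. The 2 probe sets that could read TUBB2A therefore disagree by 0.95 on the log2 scale, and TUBB2B has no value apart from the shared one.

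TUBB, the main beta tubulin of most dividing cells, was slightly lower in all 3 of its probe sets. They read -0.16, -0.11 and -0.11 in the shKDM4A array and 0.16, 0.11 and 0.11 in the control array. The mean difference was -0.25 ± 0.058 (SD, n = 3 probe sets), and the 1 set that does not end in _x_at gave the lowest value, -0.32. Among the 9 tubulin genes with a value, TUBB, TUBA1B and TUBA1C lay next to each other in the order of differences, within 0.032 of each other. That gap is smaller than the SD between the probe sets of TUBB, which is not a spread between cultures.

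The remaining beta genes lay close to 0. TUBB3, the neuronal beta isotype, differed by -0.026 ± 0.046 (SD, n = 2 probe sets), with 0.0033 and -0.029 in the shKDM4A array against -0.0033 and 0.029 in the control array. TUBB4B, a beta isotype that is also prominent in cilia, differed by -0.0079 ± 0.036 (SD, n = 2 probe sets), with 0.0089 and -0.017 in the shKDM4A array against -0.0089 and 0.017 in the control array. The probe sets of both genes fell on either side of 0 and inside the range of the spike-ins, and the gene means could not be told apart. TUBB6, a class V beta tubulin, read 0.052 in the shKDM4A array and -0.052 in the control array in its single probe set, a difference of 0.10.

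**Figure D2:**
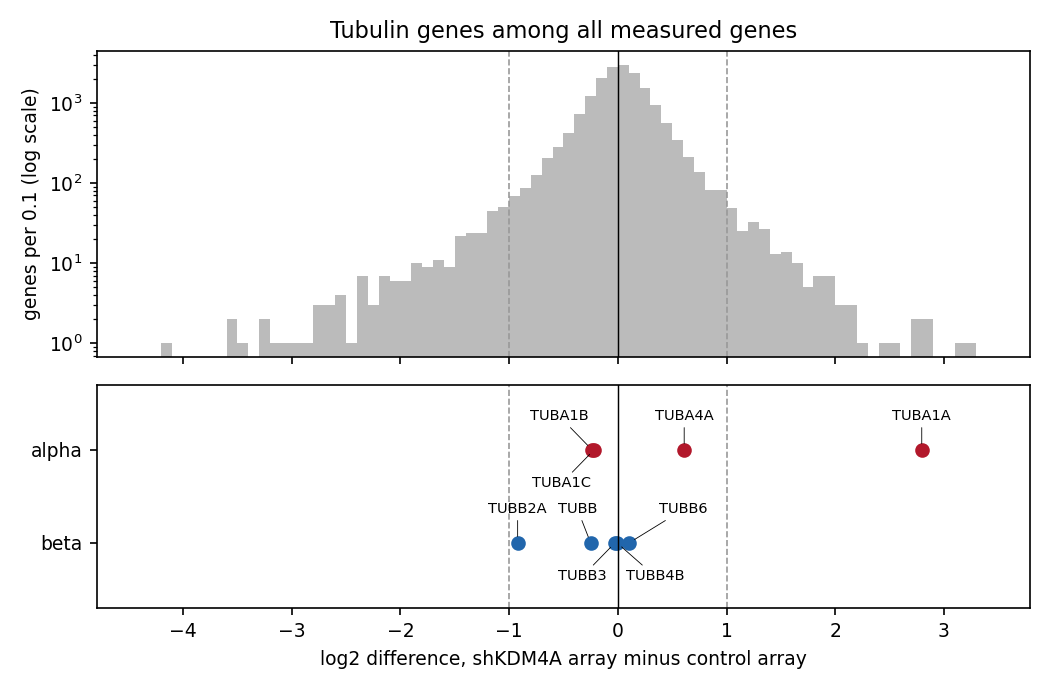
Upper panel, number of genes per 0.1 of log2 difference, shKDM4A minus control, on a log scale for all 17689 genes; lower panel, the 4 alpha genes (red) and 5 beta genes (blue) on the same x axis, with dashed lines at 2-fold. TUBA1A lies at 2.80 in the sparse upper tail and TUBB2A at -0.92, while the other tubulin genes lie between -0.25 and 0.61.

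Alpha and beta genes differed mainly through TUBA1A. Alpha genes ran from -0.24 to 2.80 and beta genes from -0.92 to 0.10, so the classes overlapped. The alpha median was 0.20 over 4 genes and the beta median -0.026 over 5, which puts alpha 0.22 above beta; the means were 0.74 and -0.22, a gap of 0.96. By medians, the order of the classes turned round when TUBA1A was left out, to a gap of -0.19. Leaving out genes that rest on 1 probe set gave a gap of medians of -0.20. Both settings were chosen after seeing the data, and the means were not compared in them. The beta mean includes TUBB2A at -0.92. Counted by gene, 2 of 4 alpha and 4 of 5 beta genes lay below 0, where 46.3% of all genes did. The beta count includes TUBB3 (-0.026) and TUBB4B (-0.0079), whose probe sets fell on either side of 0. Counted by probe set, 7 of 9 alpha sets and 6 of 9 beta sets lay below 0, with medians of -0.22 and -0.058. Of all probe sets, 48.0% lay below 0. The 7 alpha sets are those of TUBA1B and TUBA1C, which are not independent probes, so the count by probe set repeats readings of the same genes. Without knowledge of levels, none of these summaries says how the total of tubulin mRNA differed.

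The tubulin genes lie on 6 chromosomes, and the genes beside them were compared by their order in the RefSeq annotation. TUBA1B, TUBA1A and TUBA1C follow each other on chromosome 12 with no other measured gene between them. Beyond them, LMBR1L lay at 0.94 on the TUBA1B side and PRPH, the gene for the neuronal intermediate filament peripherin, at 0.84 on the TUBA1C side, each from 1 probe set. Both were at least 1.5-fold higher, where 4.3% of all genes were. The next gene, TROAP, which encodes a protein of the mitotic spindle, lay at -0.75 ± 0.19 (SD, n = 2 probe sets). TROAP was at least 1.5-fold lower, where 4.38% of all genes were. Around TUBA4A on chromosome 2, TUBA4B, a gene related to it, lay at 0.30 and STK16 at -0.42 ± 0.63 (SD, n = 2 probe sets). The measured genes beside TUBB2A on chromosome 6, BPHL and LOC100422781, lay at 0.057 and -0.20. TUBB2B, which has no value of its own, lies between TUBB2A and LOC100422781. Of 28 neighbours of the 10 genes, up to 2 measured genes on each side, none was 2-fold apart and the median was 0.019. Of the 28, 15 lay above 0, where 53.7% of all genes did.

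**Figure D3:**
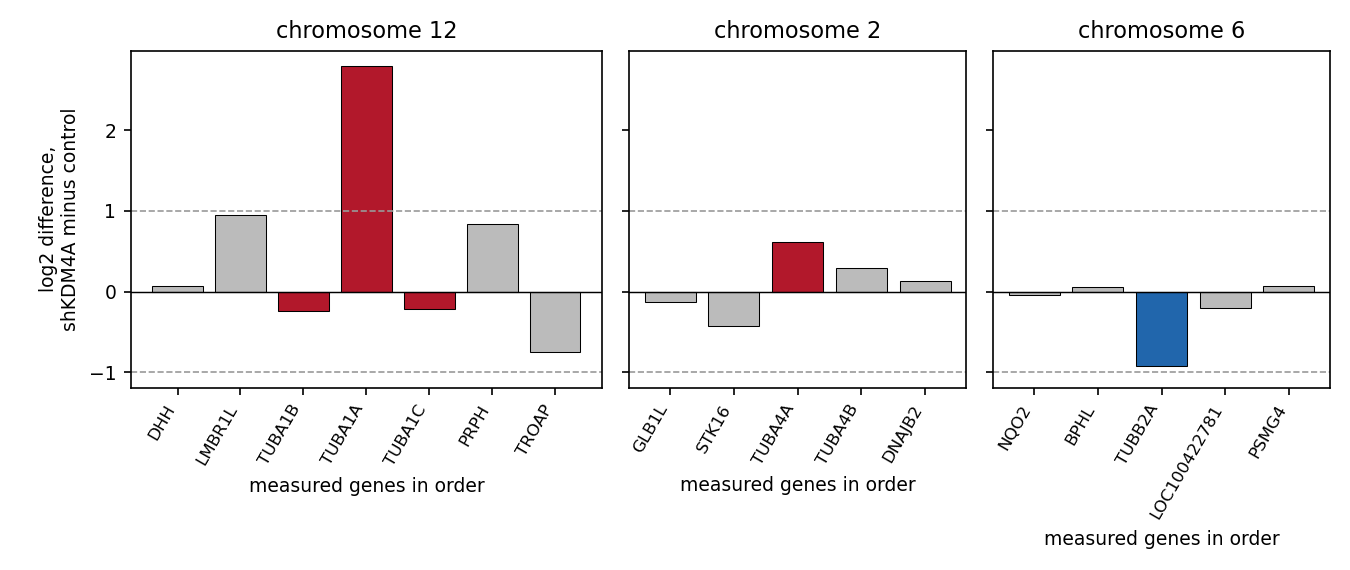
Log2 difference, shKDM4A minus control (y axis), of TUBA1A, TUBA1B, TUBA1C and TUBA4A (red), TUBB2A (blue) and the measured genes beside them (grey), in the order of the RefSeq annotation and not to distance; each bar is the mean over a gene's probe sets and dashed lines mark 2-fold. TUBA1A, at 2.80, stands between TUBA1B at -0.24 and TUBA1C at -0.22.

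Of the 8 other alpha and beta tubulin genes listed, 3 had a probe set of their own: TUBB1, the beta tubulin of platelets, at 0.24, TUBB4A at -0.033 and TUBA8 at -0.14. The 2 probe sets that name both TUBA3D and TUBA3C, testis isotypes, lay at 0.30 and -0.069.

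The tubulins that do not enter the microtubule wall, and the complex that starts new microtubules, were mixed. Of 12 measured genes, 6 lay above 0, none was 2-fold higher and 2 were 2-fold lower, with a median of -0.018. Among all genes, 53.7% lay above 0, 1.16% were 2-fold higher and 1.44% were 2-fold lower. TUBE1, the epsilon tubulin of centrioles, read -0.79 in the shKDM4A array and 0.79 in the control array in its 1 probe set, 2.97-fold lower (-1.57). MZT1, a small subunit of the gamma-tubulin ring complex, was 2.30-fold lower (-1.20, 1 probe set). TUBG1 and TUBG2, the gamma tubulins that template microtubules, lay on the other side at 0.71 and 0.51, also with 1 probe set each.

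Of the genes that fold tubulin, none was 2-fold apart. For the counts below, the share of all genes above 0 was 53.7%. Of 12 measured subunits of the chaperonin TRiC and of prefoldin, which receive new tubulin chains, 7 lay above 0, and the range was -0.17 to 0.36 with a median of 0.12. The 4 farthest from 0 were CCT2 (0.36 ± 0.18, 2 probe sets), CCT7 (-0.17), CCT4 (-0.17 ± 0.20, 2 probe sets) and PFDN4 (0.16 ± 0.12, 3 probe sets). Of 7 cofactors that assemble the dimer, 5 lay above 0 with a median of 0.12, which was -0.017 over the 5 genes left without probe sets ending in _x_at or _s_at. TBCEL, a relative of the cofactor TBCE that destabilises tubulin, lay lowest at -0.61 ± 0.48 (SD, n = 3 probe sets), with its sets running from -1.06 to -0.11. TBCE itself lay at 0.39 ± 0.031 (SD, n = 2 probe sets), TBCC at 0.21 and ARL2, their regulatory GTPase, at 0.17.

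The genes of tubulin mRNA decay all lay a little above 0. TTC5 differed by 0.19 ± 0.19 (SD, n = 3 probe sets), SCAPER, which links TTC5 to the deadenylase, by 0.33 ± 0.14 (SD, n = 3 probe sets), and CNOT11, a subunit of that deadenylase complex, by 0.24 (1 probe set). None of these 3 was 2-fold apart. The upper quartile of all genes was 0.18, and 53.7% of all genes lay above 0.

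Enzymes that modify tubulin after it is made were not 2-fold apart in any of 26 measured cases. Of these, 18 lay above 0, where 53.7% of all genes did, and the median was 0.082. The members farthest from 0 were TTLL6, a polyglutamylase, at 0.95, AGBL3, a carboxypeptidase that trims the tails, at 0.65, TTLL7, a polyglutamylase, at 0.51 ± 0.54 (2 probe sets), and TTLL2, of the same enzyme family, at -0.45. TTL, which adds the terminal tyrosine back to alpha tubulin, lay at 0.067 ± 0.22 (SD, n = 4 probe sets).

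Among stathmins and severing enzymes, which take microtubules apart, 7 of 10 measured genes lay below 0, where 46.3% of all genes did, with a median of -0.19. Of the 7, STMN2 (-0.038 ± 0.019, 2 probe sets) and KATNA1 (-0.13, 1 probe set) lay inside the quartiles of all genes. STMN1, the stathmin of dividing cells, lay at -0.52 (1 probe set), FIGN, a severing enzyme, at -0.41 ± 0.28 (SD, n = 2 probe sets) and KATNAL1, a katanin subunit, at -0.33 ± 0.18 (SD, n = 2 probe sets). STMN4, a neuronal stathmin, passed 2-fold with a mean of 1.16 ± 1.49 (SD, n = 2 probe sets). Its probe sets disagree: one, ending in _s_at, read 1.11 in the shKDM4A array and -1.11 in the control array, a difference of 2.21, and the other differed by 0.11.

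Proteins that bind microtubules or ride their growing ends had no member 2-fold apart. Of 16 measured, 12 lay above 0, where 53.7% of all genes did, and the median of 0.12 lay inside the quartiles of all genes. All of the EB proteins, which mark growing plus ends, were among the 4 farthest from 0. MAPRE1 lay at 0.90 ± 0.089 (SD, n = 2 probe sets), MAPRE3 at 0.75 ± 0.65 (SD, n = 4 probe sets) and MAPRE2 at 0.64 ± 0.077 (SD, n = 2 probe sets), followed by MAP7, a recruiter of kinesin, at 0.48 ± 0.12 (SD, n = 3 probe sets). The MAPRE3 sets ran from 0.070 to 1.33.

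**Figure D4:**
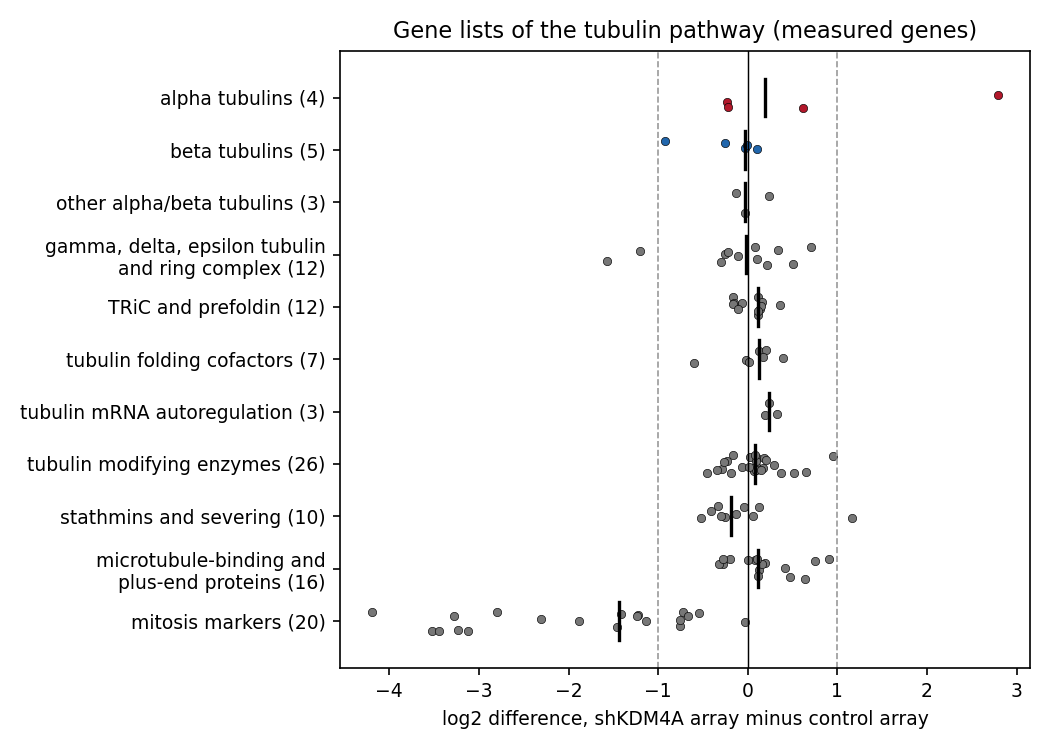
Log2 difference, shKDM4A minus control (x axis), of each measured gene of the lists named on the left, with the number of genes in brackets; black bars are list medians, dashed lines mark 2-fold and the vertical scatter within a row carries no value. The mitosis markers have a median of -1.44, while the tubulin pathway lists have medians between -0.19 and 0.24.

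Marker lists of the mitotic state and of other cell types were read on the same arrays. All 20 mitosis markers lay below 0, where 46.3% of all genes did. Of these, 14 were 2-fold lower, where 1.44% of all genes were. Their median was -1.44, with a low of -4.20 for DLGAP5 and -3.53 ± 0.19 for TOP2A (SD, n = 2 probe sets). BUB1B, at -0.035 (1 probe set), lay inside the range of the spike-ins. CCNB2 was among the 14 at -1.13 ± 1.81 (SD, n = 3 probe sets), with its sets running from -3.23 to -0.065. With medians over probe sets, 13 of the 20 were 2-fold apart. In bulk RNA, fewer mitotic cells and less RNA per cell cannot be told apart, and their part in the tubulin differences was not tested. For the cell type lists, the share of all genes above 0 was 53.7%. Neuron markers, relevant because TUBA1A, TUBB3 and PRPH are neuronal genes, had 8 of 12 above 0 and a median of 0.14. None of them was 2-fold apart, and the members farthest from 0 were NEFL (0.49 ± 0.22, 3 probe sets) and RBFOX3 (0.22 ± 0.23, 2 probe sets). Luminal prostate markers had 6 of 8 above 0 with a median of 0.11, with TMPRSS2 at -0.76 ± 0.16 (4 probe sets). FOXA1, a pioneer factor of luminal cells, was their 1 member past 2-fold, with a mean of -1.16 ± 1.75 (SD, n = 2 probe sets). Its probe sets disagree, at -2.39 and 0.079. Basal epithelial markers (median 0.056, 5 measured; KRT14 at 0.41, ITGA6 at -0.22 ± 0.37 over 2 probe sets) and fibroblast and smooth muscle markers (median 0.024, 10 measured; ACTG2 at 0.78 ± 0.98 over 2 probe sets, COL1A1 at 0.73 ± 0.76 over 4) had no member 2-fold apart by its mean. The sets of COL1A1 ran from 0.037 to 1.57, those of COL3A1 from -0.065 to 1.30 and those of ACTG2 from 0.084 to 1.47. ACTA2, a smooth muscle actin gene outside the list, was looked up after its value was seen. It lay at 2.14 ± 2.42 (SD, n = 2 probe sets), with sets that disagree, at 0.43 and 3.85.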

How the data were processed

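RNA of LNCaP cells with shKDM4A or control lentivirus, 3 µg each, was hybridised to 1 array per group. The authors deposited log2-scale values of 44672 probe sets; the submitters' processing notes name RMA without a version. In every row the values of both arrays sum to 0 within 1e-06, so each is centred on the mean of the 2 arrays. How the log base, centring and filtering were set is not given here in the sources used. Base 2 was taken because RMA works on it. Depth does not apply to arrays; signal over background is lost with the centring.

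The difference was shKDM4A minus control. Of the probe sets, 34880 name 1 gene in the platform annotation, 1619 several and 8131 none; the 42 control sets were kept apart. Entrez identifiers matched 34839 of the first to RefSeq genes, with 0 symbols changed.

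A difference of at least 2-fold was the rule of size; it tests nothing. Members, lists and the rule for named genes (all members, list members 2-fold apart and the 4 farthest from 0 per pathway list, 2 per marker list) were chosen with earlier results of these data known. Alternatives were other probe set choices, medians over probe sets, median-centred differences, size rules of 1.5-fold and 3-fold, and means over genes. The gene summary was run on simulated differences with independent noise of equal SD in every probe set. That checks the calculation only, because probe sets of a gene are not independent in these data and some disagree. Python 3.11.15, numpy 2.4.6, pandas 2.3.3 and matplotlib 3.10.9 were used. Promoters come from RefSeq, GRCh38.p14, and 10 of 10 genes matched.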

Additional observations from a re-analysis of the deposited data

How the results depend on the processing

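No paired analysis was possible because each group had 1 array. No array could be left out for the same reason. Without probe sets ending in _x_at or _s_at, TUBA1A, TUBA1B, TUBA1C, TUBB3 and TUBB4B had no value. The count of tubulin genes 2-fold apart was then 0 of 4 (1 of 9 otherwise), the alpha median was 0.61 over TUBA4A alone, the gap of alpha over beta 0.93, and the count of stathmins and severing enzymes 2-fold apart 0 of 8. In that setting 3 small list medians also changed sign, to -0.017 for folding cofactors, -0.014 for luminal and -0.10 for basal markers, each over 5 genes. With means over genes the alpha value was 0.74 and the gap 0.96. A size rule of 1.5-fold gave 3 tubulin genes and one of 3-fold gave 1. Chosen after seeing the data, genes with 2 or more probe sets gave an alpha median of -0.23 and a gap of medians of -0.20. Leaving out TUBA1A gave -0.22 and -0.19, also by medians. Adding the shared probe set moved TUBB2A to -0.44. Medians over probe sets and median-centred differences moved no median of a list or class by more than 0.33, the SD among a gene's probe sets pooled over genes, and no count of genes by more than 1.5 times.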

Other observations

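Some probe sets name tubulin-related loci outside the fixed lists; they were chosen after their values were seen. TUBA3FP, an alpha tubulin pseudogene, lay at 0.11 on the log2 scale, shKDM4A minus control, the beta pseudogenes TUBB7P and TUBBP5 at -0.0041 and 0.26, and TUBA4B at 0.30, each from 1 probe set. None was 2-fold apart.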
